A study of Mus musculus with 6 samples.

Results

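The 10 genes described here encode the machinery that pushes out the lamellipodium of a moving fibroblast: the Arp2/3 subunits Actr2, Actr3, Arpc1b, Arpc2, Arpc3 and Arpc5, the WAVE proteins Wasf1, Wasf2 and Wasf3, and their partner Cyfip1. They are 10 of the 21938 protein-coding genes of the annotation and were chosen by name with earlier results of these peak lists known, so their peaks are described and no test is made on them. For each gene all open regions within the gene or 20 kb of it and all Tfcp2l1 binding peaks within 200 kb of its transcription start site (TSS) were taken. The measurements came from mouse embryonic fibroblasts (MEFs) of the strain C57BL/6J, with 1 library per condition and no genetic change named in the labels. For the cells grown in 3% oxygen, hypoxia, ATAC-seq measured open chromatin after they had become immortal (Hyp-Imm) and while they were proliferating at passage 1 (Hyp-Pro). For those grown in 20% oxygen, normoxia, it did so at senescence (Norm-Sen) and, again proliferating, at passage 1 (Norm-Pro), and all ATAC-seq cells came from E13.5 embryos. Binding of the transcription factor Tfcp2l1 was measured by ChIP-seq in immortal hypoxic MEFs (ChIP Hyp) and in senescent normoxic MEFs (ChIP Norm).

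The Arp2/3 complex starts a new actin filament on the side of an existing one, and the branched network that results pushes the plasma membrane forward. Actr2 and Actr3 are the actin-related proteins that form the start of the new filament, and the Arpc subunits hold the complex together and on the mother filament. The complex is switched on by WAVE proteins, each of which sits in a larger complex with a Cyfip, a Nckap, an Abi and a Brk1 subunit, and the small GTPase Rac releases it by binding Cyfip. Fibroblasts spread and crawl with this machinery, and most cells use it. ATAC-seq marks DNA that the Tn5 transposase can reach, so a peak near a TSS describes an accessible promoter and does not measure how much RNA the gene makes.

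The ATAC-seq lists held between 37770 peaks in Hyp-Imm and 69122 in Norm-Pro, and the ChIP lists 612 peaks in ChIP Hyp and 393 in ChIP Norm. Each of the 4 ATAC-seq lists has a file name that contradicts its sample label, and the labels were used throughout. By the file names, the libraries labelled Hyp-Imm, Hyp-Pro, Norm-Sen and Norm-Pro would be Norm-Sen, Norm-Pro, Hyp-Pro and Hyp-Imm. Inside the lists the peak names carried the number 25 in both libraries labelled as hypoxic and the number 1 in both labelled as normoxic, so oxygen and whatever that tag stands for cannot be told apart. The fewest reads lay behind Hyp-Imm, whose genome background of 0.445 reads per position was 25.2% of that of Norm-Sen, the highest. A peak needed at least 4 reads at its summit in Hyp-Imm, 6 in Hyp-Pro, 8 in Norm-Sen and 6 in Norm-Pro to be in its list. Of 8 fibroblast marker genes, 4 had a promoter peak in Hyp-Imm, against 30.9% of all protein-coding genes. In each of the other libraries 5 had one, against 44.2% to 49.3%. Col1a2, Vim, Twist1 and Fn1 had one in each library, Col1a1 and Thy1 in some, and Pdgfra and Prrx1 in none. Of 3 markers each of epithelial, endothelial, blood, neural and pluripotent cells, 0 to 2 had one. The endothelial marker Kdr had one in all 4 libraries, and either Cdh1 or Epcam, both epithelial, had one in each. Each value below stands for 1 library, so no replicate error exists.

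Of the 10 promoters, those of 3 Arp2/3 subunits and of Wasf1 lacked a peak in at least 1 library and the other 6 had one in each. At a stricter threshold, a −log10 q of at least 5, only Actr2, Actr3 and Cyfip1 kept a promoter peak in Hyp-Imm. A promoter peak is a peak that reaches within 1 kb of the TSS. In Hyp-Imm 7 of the 10 genes had one, against 30.9% of all protein-coding genes, and in Hyp-Pro 8 of 10, against 44.2%. In Norm-Sen 9 of 10 had one, against 47.6% of all genes, and in Norm-Pro 10 of 10, against 49.3%. Actr2, Actr3, Arpc5, Wasf2, Wasf3 and Cyfip1, 6 of 10, had a promoter peak in all 4 libraries, as did 23.2% of all genes. For Arpc5 and Wasf3 these peaks did not all lie at the same place within the promoter window. These shares place the list above the background in every library, and the order of the counts was the same as the order of the background shares.

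**Figure D1:**
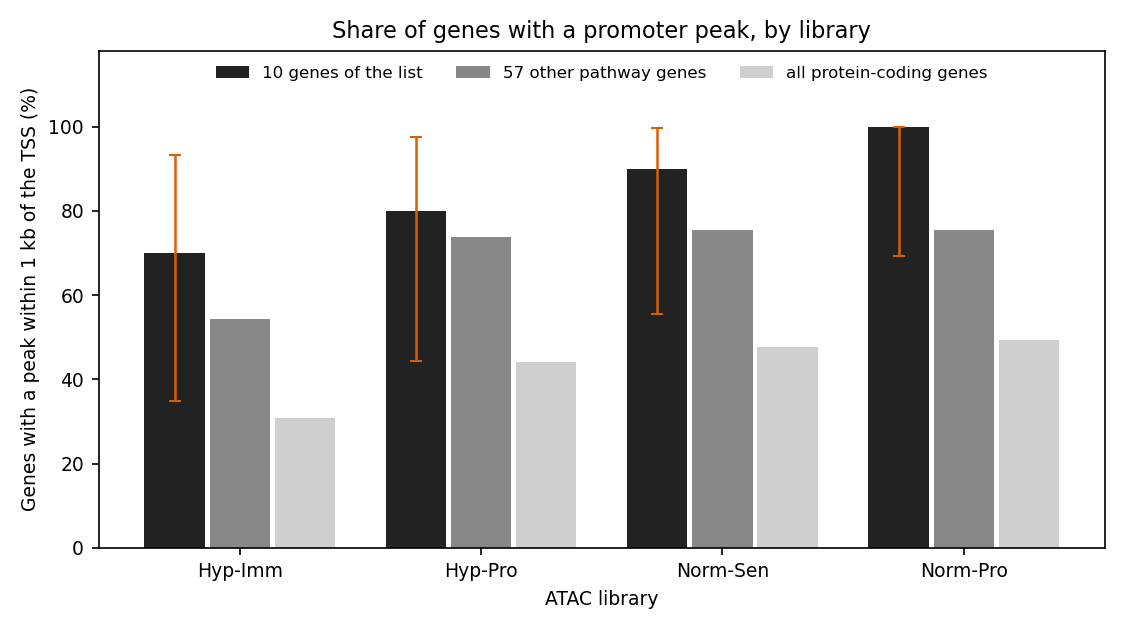
Share of genes with an ATAC-seq peak within 1 kb of the TSS (percent) in each of the 4 libraries, for the 10 genes of the list (black), the 57 other pathway genes (grey) and all protein-coding genes (light grey). Lines on the black bars are exact 95% binomial intervals, which cover counting error only. They run from 34.8% to 93.3% in Hyp-Imm and from 69.2% to 100% in Norm-Pro. The genes were chosen by name and are not a random draw, so the lines are no test against the other bars.

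Compared pair by pair, few of the 10 promoters differed. No gene had a promoter peak in Hyp-Imm and not in Norm-Sen (4.23% of all genes did), and Arpc3 and Wasf1 had one in Norm-Sen and not in Hyp-Imm (20.9%). Arpc2 had one in Hyp-Imm and not in Hyp-Pro (5.07%), while Arpc1b and Wasf1 had one in Hyp-Pro and not in Hyp-Imm (18.4%). No gene had one in Hyp-Pro and not in Norm-Pro (5.96%), and Arpc2 and Arpc3 had one in Norm-Pro and not in Hyp-Pro (11.0%). No gene had one in Norm-Sen and not in Norm-Pro (7.19%), and Arpc1b had one in Norm-Pro and not in Norm-Sen (8.9%). A count of 0, 1 or 2 of 10 genes is close to each of these backgrounds, so the differences are given gene by gene and not as a property of the list. When only the 37770 strongest peaks of each library were kept, the same genes had a promoter peak in every library.

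The depth behind each promoter peak is given as reads at its summit, recovered from the fold enrichment and p columns, and as a ratio to the median summit over the 5099 genes with a promoter peak in all 4 libraries. That median was 10 reads in Hyp-Imm, 17 in Hyp-Pro, 22 in Norm-Sen and 20 in Norm-Pro. A summit is the highest position of a peak, and the exact 95% Poisson intervals given with it cover counting error only. Where a library lacked a promoter peak, the summits of the other libraries were scaled to its depth, by the genome background and by the median promoter, and set beside the lowest summit that its list would hold.

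Actr2, on chromosome 11 (chr11:20062304-20112913, minus strand, GRCm38), encodes one of the actin-related proteins of the complex. Its promoter peak held 13 reads in Hyp-Imm (6.92 to 22.2) and 24 in each of Hyp-Pro, Norm-Sen and Norm-Pro (15.4 to 35.7). Relative to the median promoter these were 1.3 in Hyp-Imm, 1.41 in Hyp-Pro, 1.09 in Norm-Sen and 1.2 in Norm-Pro. The Actr2 promoter was thus a little above the median promoter of each library, and the intervals of the 4 ratios overlap. By −log10 q, the strength of a peak within its own list, it ranked 1095 of 37770 in Hyp-Imm and 1418 of 69122 in Norm-Pro.

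Actr3 (chr1:125392905-125435727, minus strand) encodes the other actin-related protein. Its promoter peak held 11 reads in Hyp-Imm (5.49 to 19.7), 19 in Hyp-Pro (11.4 to 29.7), 35 in Norm-Sen (24.4 to 48.7) and 32 in Norm-Pro (21.9 to 45.2). The ratios to the median promoter were 1.1 in Hyp-Imm, 1.12 in Hyp-Pro, 1.59 in Norm-Sen and 1.6 in Norm-Pro. Both libraries labelled as normoxic gave the higher ratios, but the intervals overlap, from 0.549 to 1.97 in Hyp-Imm and from 1.11 to 2.21 in Norm-Sen. The peak was among the strongest of the list's genes, at rank 309 of 61408 in Norm-Sen and 305 of 69122 in Norm-Pro, and at 3844 of 37770 in Hyp-Imm.

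Arpc1b (chr5:145114215-145130705, plus strand) encodes a WD-repeat subunit that contacts the activating proteins, and it had the fewest open promoters of the list, together with Arpc3. In Hyp-Pro its best promoter peak held 20 reads (12.2 to 30.9), with a fold enrichment over the local background of 4.88, and in Norm-Pro 16 reads (9.15 to 26.0) at a fold of 3.62. Hyp-Imm and Norm-Sen, both late cultures, had none. The local background around the promoter was high, at 3.3 reads in Hyp-Pro and 3.7 in Norm-Pro. Scaled by the genome background, the Hyp-Pro and Norm-Pro summits would correspond to 9.31 and 5.75 reads at the depth of Hyp-Imm, and scaled by the median promoter to 11.8 and 8.0. At the depth of Norm-Sen they would be 37.0 and 22.8 reads by the first scaling and 25.9 and 17.6 by the second. With a local background 3 or 4 times the genome background, as at this promoter, a peak would need 7 or 8 reads in Hyp-Imm and 15 or 18 in Norm-Sen. Norm-Sen had a peak 2.4 kb into the gene, outside the promoter window, at a fold of 3.35.

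Arpc2 (chr1:74236084-74268209, plus strand) encodes a subunit of the core that binds the mother filament. At its promoter the peak held 8 reads in Hyp-Imm (3.45 to 15.8), 30 in Norm-Sen (20.2 to 42.8) and 22 in Norm-Pro (13.8 to 33.3), and Hyp-Pro had none. The 3 other libraries would correspond to 17.2, 16.2 and 17.0 reads at the depth of Hyp-Pro by the genome background and to 13.6, 23.2 and 18.7 by the median promoter, where the lowest summits called were 6 at the genome background and 8 at 2 times that background. The deeper of the libraries labelled as hypoxic thus lacked a promoter peak that the shallower one had. The summits lay 364, 397 and 333 bp downstream of the gene record's start, inside the promoter window that RefSeq places at a start further into the gene. In Hyp-Imm the peak ranked 17859 of 37770, in Norm-Sen 851 of 61408.

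Arpc3 (chr5:122391878-122414184, plus strand) encodes a small subunit of the complex. The peak at its promoter held 17 reads in Norm-Sen (9.9 to 27.2) and 14 in Norm-Pro (7.65 to 23.5), and neither Hyp-Imm nor Hyp-Pro had one. It was the only gene of the 10 whose promoter was split by the oxygen label, and the share of all genes with this split is not given here. By the file names the libraries with a peak would be the hypoxic ones. At the depth of Hyp-Imm the summits of Norm-Sen and Norm-Pro would correspond to 4.28 and 5.03 reads by the genome background and to 7.73 and 7.0 by the median promoter, against a lowest summit of 4. At the depth of Hyp-Pro they would be 9.2 and 10.8 by the first scaling and 13.1 and 11.9 by the second, against a lowest summit of 6. A promoter that is closed and one that lies below the calling limit cannot be told apart from the lists.

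The promoters of these 3 genes are shown because they are the Arp2/3 promoters that some libraries lacked. Each runs from 250 bases before to 50 bases after the RefSeq start on the gene's strand (RefSeq, GRCm38.p6), at chr5:145114006-145114305 for Arpc1b, chr1:74236267-74236566 for Arpc2 and chr5:122391628-122391927 for Arpc3. Capitals mark matches to any of the motifs searched, which are spelled out further on.
Arpc1b promoter: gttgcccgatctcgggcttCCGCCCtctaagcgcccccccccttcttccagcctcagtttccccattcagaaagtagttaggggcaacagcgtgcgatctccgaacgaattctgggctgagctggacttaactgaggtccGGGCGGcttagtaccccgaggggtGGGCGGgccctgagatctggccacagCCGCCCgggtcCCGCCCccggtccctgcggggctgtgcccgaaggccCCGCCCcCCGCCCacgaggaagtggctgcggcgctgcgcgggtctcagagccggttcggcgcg
Arpc2 promoter: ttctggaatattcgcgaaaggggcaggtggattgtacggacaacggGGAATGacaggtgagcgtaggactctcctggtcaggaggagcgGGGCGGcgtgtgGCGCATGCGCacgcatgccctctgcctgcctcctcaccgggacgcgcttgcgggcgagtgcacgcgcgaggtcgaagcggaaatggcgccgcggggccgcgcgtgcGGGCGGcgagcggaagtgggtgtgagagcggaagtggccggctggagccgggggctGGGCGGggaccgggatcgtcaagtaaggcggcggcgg
Arpc3 promoter: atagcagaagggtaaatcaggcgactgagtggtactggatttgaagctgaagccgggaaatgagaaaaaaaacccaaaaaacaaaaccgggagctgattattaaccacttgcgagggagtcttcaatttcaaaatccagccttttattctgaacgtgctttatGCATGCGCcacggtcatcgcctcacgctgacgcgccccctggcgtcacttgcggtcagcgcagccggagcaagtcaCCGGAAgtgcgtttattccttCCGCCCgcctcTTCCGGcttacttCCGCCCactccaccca
G and C made up 69.3% of the Arpc1b promoter and 70.0% of that of Arpc2, and 52.7% of that of Arpc3, which was also the median over all promoters. The matches in Arpc1b are all GGGCGG or its reverse, Arpc2 holds a palindromic stretch in which 2 matches of GCATGCGC overlap, and Arpc3 holds CCGGAA near the start on both strands.

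Arpc5 (chr1:152766542-152775597, plus strand), a small subunit of the complex's core, shared its promoter with Rgl1, a gene of Ras and Ral signalling whose TSS lies 191 bp away. A peak there can belong to either gene. The strongest promoter peak of each library held 7 reads in Hyp-Imm (2.81 to 14.4), 17 in Hyp-Pro (9.9 to 27.2), 25 in Norm-Sen (16.2 to 36.9) and 20 in Norm-Pro (12.2 to 30.9). Relative to the median promoter these were 0.7 in Hyp-Imm, 1.0 in Hyp-Pro, 1.14 in Norm-Sen and 1.0 in Norm-Pro. The Hyp-Imm peak was the weakest promoter peak of the list within its own library, at rank 32207 of 37770, and its summit lay at −268 bp, while those of the other 3 lay between 7 and 55 bp downstream of the TSS. The Hyp-Imm peak lay over an exon of Rgl1 and overlapped none of those 3 peaks. Only a weaker second peak of Norm-Sen overlapped it.

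**Figure D2:**
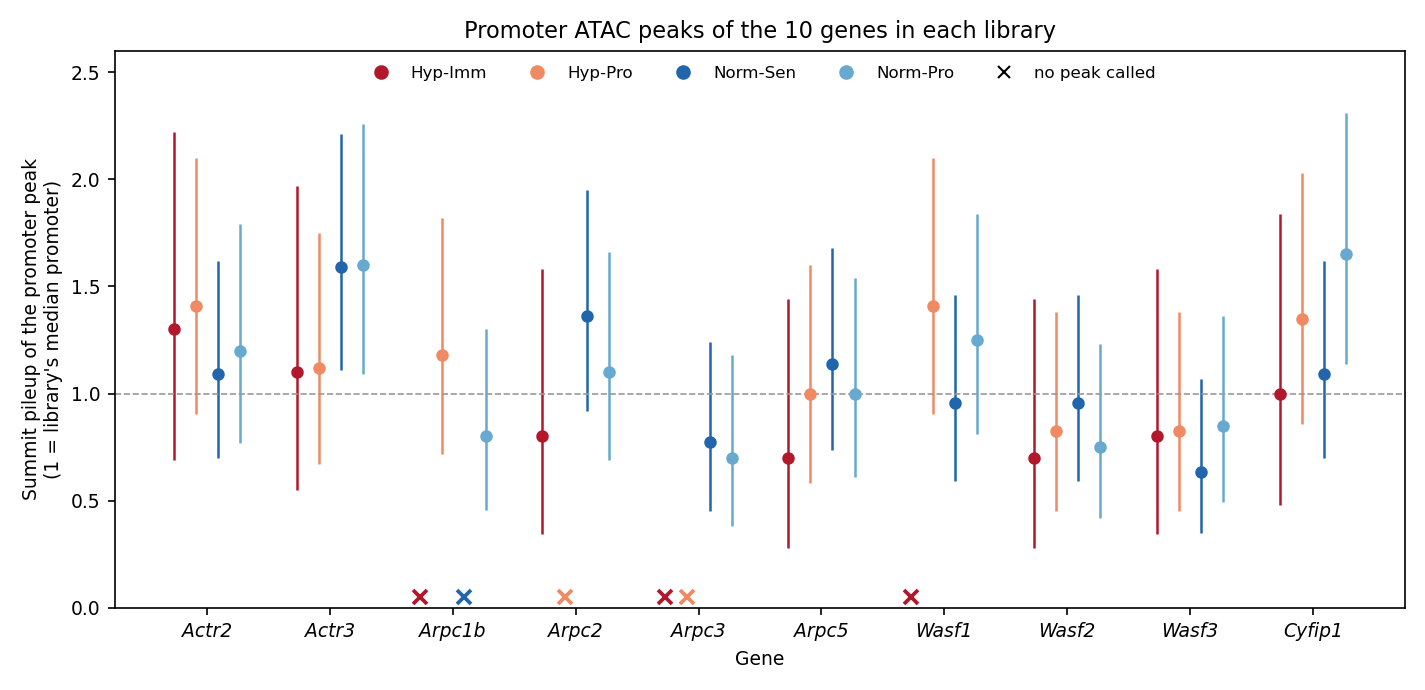
Reads at the summit of the promoter peak of each gene, divided by the median promoter of the same library (1 on the vertical axis), for Hyp-Imm, Hyp-Pro, Norm-Sen and Norm-Pro from left to right within each gene. Lines are exact 95% Poisson intervals of the summit count and crosses mark libraries without a promoter peak; the ratios run from 0.636 (Wasf3, Norm-Sen) to 1.65 (Cyfip1, Norm-Pro), and every gene's intervals overlap between libraries.

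Wasf1 (chr10:40883475-40938570, plus strand) encodes the WAVE protein best known from brain, and its promoter was open in all libraries but Hyp-Imm. It held 24 reads in Hyp-Pro (15.4 to 35.7), 21 in Norm-Sen (13.0 to 32.1) and 25 in Norm-Pro (16.2 to 36.9). The TSS of Cdc40, a splicing factor gene, lies 164 bp away, and the peak can belong to either gene. In Hyp-Pro this was the strongest promoter peak of the list, at a fold of 9.43 and rank 563 of 47523. At the depth of Hyp-Imm the summits of Hyp-Pro, Norm-Sen and Norm-Pro would correspond to 11.2, 5.29 and 8.98 reads by the genome background and to 14.1, 9.55 and 12.5 by the median promoter. The lowest summits called in Hyp-Imm were 4 at the genome background and 6 at 2 times that background.

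Wasf2 (chr4:133130505-133199756, plus strand) encodes the widely expressed WAVE protein of fibroblast lamellipodia. The peak at its promoter held 7 reads in Hyp-Imm (2.81 to 14.4), 14 in Hyp-Pro (7.65 to 23.5), 21 in Norm-Sen (13.0 to 32.1) and 15 in Norm-Pro (8.4 to 24.7). The ratios of 0.7 in Hyp-Imm, 0.824 in Hyp-Pro, 0.955 in Norm-Sen and 0.75 in Norm-Pro placed it below the median promoter in each library. The summits lay 40 to 69 bp downstream of the TSS, at the same place in all 4.

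Wasf3 (chr5:146384985-146473615, plus strand) encodes the third WAVE protein, which has been tied to cell migration and invasion. Its promoter peak held 8 reads in Hyp-Imm (3.45 to 15.8), 14 in Hyp-Pro (7.65 to 23.5), 14 in Norm-Sen (7.65 to 23.5) and 17 in Norm-Pro (9.9 to 27.2). The ratios were 0.8 in Hyp-Imm, 0.824 in Hyp-Pro, 0.636 in Norm-Sen and 0.85 in Norm-Pro, again below the median promoter. Its summits did not coincide: the strongest lay 56 bp downstream of the TSS in Hyp-Pro and 160 bp in Norm-Sen, against 432 bp in Hyp-Imm and 466 bp in Norm-Pro. Merged over the libraries, the promoter fell into a region at the TSS seen in Hyp-Pro, Norm-Sen and Norm-Pro and a neighbouring one seen in Hyp-Imm and Norm-Pro.

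Cyfip1 (chr7:55841745-55932602, plus strand) encodes the subunit through which Rac opens the WAVE complex. Its promoter peak held 10 reads in Hyp-Imm (4.8 to 18.4), 23 in Hyp-Pro (14.6 to 34.5), 24 in Norm-Sen (15.4 to 35.7) and 33 in Norm-Pro (22.7 to 46.3). The ratios were 1.0 in Hyp-Imm, 1.35 in Hyp-Pro, 1.09 in Norm-Sen and 1.65 in Norm-Pro, and their intervals overlap. In Norm-Pro the peak had a fold of 9.83 and ranked 175 of 69122, the highest rank of any promoter peak of the list. Its summit lay between 335 and 415 bp downstream of the TSS in every library.

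Within the genes and 20 kb on each side, the peaks of the 4 libraries merged into 100 regions. Hyp-Imm had a peak in 18 of them, Hyp-Pro in 38, Norm-Sen in 38 and Norm-Pro in 48. Within the list, promoters were shared between libraries more than the rest. Of the 19 regions at promoters of the list 5 were in 1 library only, and of the 81 others 68 were (84.0%). A share for promoter regions of the whole series is not given here. Over all 100 the share in 1 library was 73.0%, against 85.6% of the 170532 regions of the whole series, and 5 were in all 4 libraries, against 3.09%. The median gene of the list had 0.117 regions per kb, against 0.0885 over all protein-coding genes. Of the 100, 31 overlapped an exon of a coding gene, 47 lay in introns and 22 between coding genes, and none lay on a tRNA gene.

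Away from the promoters, most regions of the Arp2/3 genes were in 1 library only. The same held for 84.0% of such regions over the list. Over all regions of the series, promoters included, the share was 85.6%. The single region outside the list's promoters that all 4 shared lay 48.8 kb downstream of the Arpc2 TSS (chr1:74284631-74285078), at the promoters of Aamp and Pnkd. It held 12 reads in Hyp-Imm, 29 in Hyp-Pro, 24 in Norm-Sen and 30 in Norm-Pro. Another strong region, 25.8 kb downstream of the Arpc1b TSS at the promoters of Pdap1 and Bud31, was in Norm-Sen and Norm-Pro, and one −19.4 kb from Arpc3 at the promoters of Fam216a and Gpn3 was in Hyp-Pro, Norm-Sen and Norm-Pro. These belong to neighbouring genes as far as position shows. Arpc5 had a region 12.7 kb downstream of its TSS, past its end, with 18 reads in Norm-Sen and 12 in Norm-Pro. Actr2 had an intronic region at 23.4 kb with 6 reads in Hyp-Imm and 13 in Norm-Sen, both late cultures.

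The other leading regions of the Arp2/3 genes, taken as those with the highest −log10 q over the 4 lists, were mostly in 1 library each. Since −log10 q grows with depth, this choice can favour the deeper libraries. For Actr2 this was a region at −18.8 kb in Norm-Pro, and for Actr3 regions at −6.9 and 52.9 kb, both in Norm-Sen. For Arpc1b it was a region at −18.2 kb in Norm-Pro, and for Arpc2 an intronic region at 21.5 kb in Norm-Pro. Arpc3 had a region at −11.9 kb in Gpn3, in Hyp-Pro and Norm-Pro, and Arpc5 one at −18.7 kb in Norm-Sen. Their −log10 q values ran from 3.14 to 6.07.

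Among the WAVE genes the strongest region away from a promoter lay 5.4 kb upstream of Wasf3, between genes, at chr5:146379519-146379689. It held 18 reads in Norm-Sen at a fold of 5.85 and 23 in Norm-Pro at a fold of 8.03, where it ranked 1469 of 69122. Neither Hyp-Imm nor Hyp-Pro had a peak there. Its sequence is shown because every base of it is soft-masked as a repeat in the reference, read on the plus strand.
Wasf3 upstream region: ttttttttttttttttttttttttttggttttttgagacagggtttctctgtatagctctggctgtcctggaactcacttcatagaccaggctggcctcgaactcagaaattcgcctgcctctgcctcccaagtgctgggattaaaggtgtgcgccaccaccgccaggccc
A search of the genome for this stretch gave 84932 other alignments, so reads from other copies could be placed here, and their part in the peak was not tested. No other region outside the promoters that was in 2 or more libraries was masked over at least 50% of its length.

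The remaining leading regions of Wasf1, Wasf2, Wasf3 and Cyfip1 were again mostly in 1 library. Wasf1 had regions at 74.5 kb in Norm-Pro and at −15.1 kb in Hyp-Pro, Wasf2 at −12.2 kb in Hyp-Pro and at −9.6 kb in Norm-Sen, and Wasf3 at 63.4 kb in Norm-Pro. Cyfip1 had an intronic region at 17.7 kb with 8 reads in Hyp-Pro and 16 in Norm-Pro, the passage 1 cultures, and another at 33.3 kb in Hyp-Pro, at rank 9617 of 47523. By rank within its own list, regions of Cyfip1 at 14.4 and 44.3 kb in Hyp-Imm stood higher, at 3246 and 3298 of 37770. Both were in Hyp-Imm only, and 77.5% of the bases of the first and 16.7% of those of the second are soft-masked. Of the 100 regions near the list, 0 were in both libraries labelled as hypoxic alone and 5 in both labelled as normoxic alone, against 0.5% and 2.62% of all regions of the series. By the file names the 5 would be in the hypoxic libraries. The deeper libraries are those labelled as normoxic, and the part of depth in this difference was not tested.

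**Figure D3:**
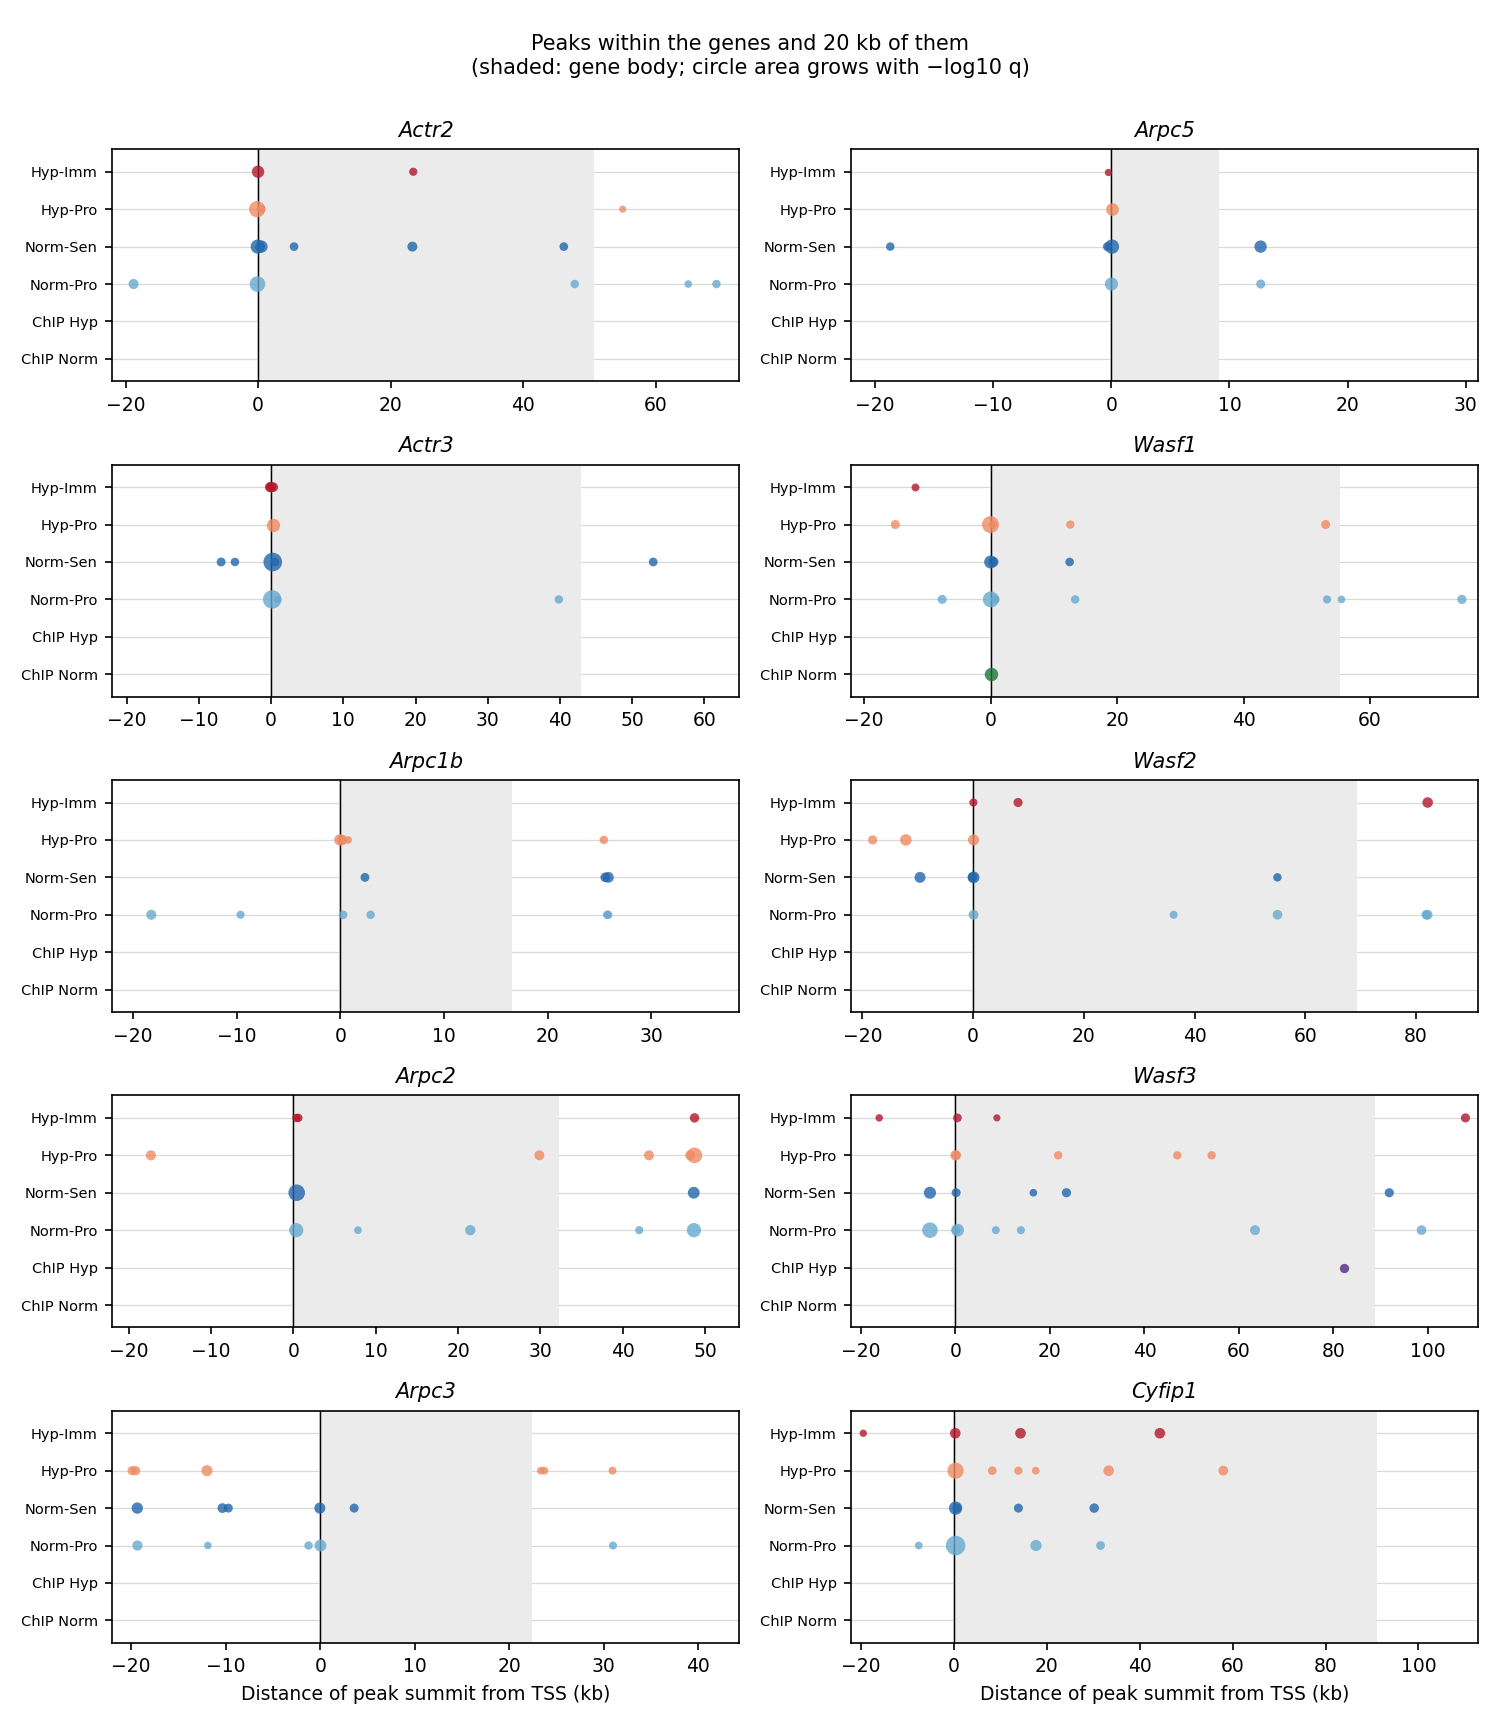
Peaks within each gene (shaded) and 20 kb of it by distance of the summit from the TSS in kb, negative upstream, with a row for each library in the order Hyp-Imm, Hyp-Pro, Norm-Sen, Norm-Pro, ChIP Hyp and ChIP Norm. Circle area grows with −log10 q; circles line up at the TSS in most rows and are scattered elsewhere, Wasf3 has a pair at −5.4 kb in Norm-Sen and Norm-Pro, and ChIP peaks appear only for Wasf1 and Wasf3.

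Binding of Tfcp2l1 touched 2 of the 10 genes, and none of the Arp2/3 subunits. In ChIP Hyp only Wasf3 had a peak within 200 kb of its TSS, against 11.8% of all protein-coding genes, and in ChIP Norm Wasf1 and Wasf3 did, against 8.13%. With 10 genes these counts are near the background. The nearest ChIP Hyp peak of the other 9 genes lay between 212 kb (Actr2) and 8317 kb (Wasf1) away, and the nearest ChIP Norm peak of the other 8 between 581 kb (Arpc2) and 12875 kb (Arpc5). None of the peaks near the list lay on a tRNA gene, as 20.4% of the ChIP Hyp peaks and 42.0% of the ChIP Norm peaks did.

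Wasf1 was the only gene of the list with a Tfcp2l1 ChIP peak at its promoter. This was in ChIP Norm only, where 0.351% of all genes had a peak within 1 kb. The peak (chr10:40883461-40883726) lay over an exon of Wasf1, with its summit 133 bp downstream of the TSS. It held 11 reads (5.49 to 19.7) at a fold of 8.9 and a −log10 q of 9.41, rank 222 of 393. It overlapped the ATAC-seq promoter peaks of Hyp-Pro, Norm-Sen and Norm-Pro. The TSS of Cdc40, 164 bp from that of Wasf1, lies upstream of all these peaks. Its sequence, on the plus strand, is shown as the single promoter of the list under a ChIP peak.
Wasf1 promoter ChIP Norm peak: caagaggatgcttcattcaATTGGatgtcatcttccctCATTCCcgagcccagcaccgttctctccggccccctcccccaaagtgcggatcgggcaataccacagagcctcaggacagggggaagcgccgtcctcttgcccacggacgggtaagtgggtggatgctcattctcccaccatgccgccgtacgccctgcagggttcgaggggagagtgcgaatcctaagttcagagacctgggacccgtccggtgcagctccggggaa
No base of it is soft-masked and the genome search found no other copy. It holds a CCAAT match and a GGAATG match, both on the opposite strand and in capitals, and no Tfcp2l1 match.

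A second ChIP Norm peak lay 157.4 kb downstream of the Wasf1 TSS, between coding genes, at chr10:41040802-41041015. It held 9 reads at a fold of 6.72 and a −log10 q of 5.31, rank 335 of 393, and all 4 ATAC-seq libraries had a peak there. The sequence is printed because it is a tandem repeat of short G-rich words, with 59.3% of its bases soft-masked.
Wasf1 distal ChIP Norm peak: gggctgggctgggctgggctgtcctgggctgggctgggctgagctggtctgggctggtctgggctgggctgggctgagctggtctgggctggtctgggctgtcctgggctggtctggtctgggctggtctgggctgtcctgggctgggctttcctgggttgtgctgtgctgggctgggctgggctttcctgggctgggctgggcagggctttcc
The nearest coding TSS to this repeat was that of Gpr6.

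The strongest ChIP peak near the list lay at the same place in ChIP Hyp and ChIP Norm. It was −123.8 kb from the Wasf3 TSS, in an intron of Cdk8, the gene of a Mediator kinase. In ChIP Hyp (chr5:146261001-146261325) it held 44 reads at a fold of 22.22 and a −log10 q of 49.86, rank 10 of 612. In ChIP Norm (chr5:146261006-146261300) it held 16 reads at a fold of 12.14 and a −log10 q of 16.24, rank 120 of 393. All 4 ATAC-seq libraries had a peak there too. The ChIP Norm stretch lies within the ChIP Hyp one and is printed for what its letters are.
Wasf3 distal ChIP Norm peak: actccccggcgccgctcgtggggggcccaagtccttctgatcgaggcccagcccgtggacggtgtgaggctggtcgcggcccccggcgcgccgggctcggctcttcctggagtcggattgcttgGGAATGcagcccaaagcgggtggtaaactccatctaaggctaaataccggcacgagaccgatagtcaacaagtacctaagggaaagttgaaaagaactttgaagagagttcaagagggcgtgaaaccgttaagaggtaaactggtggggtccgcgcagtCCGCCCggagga
None of it is soft-masked. As background, these letters read as a stretch of the 28S ribosomal RNA, which cells transcribe from many repeated gene copies; a 28S sequence was not aligned here. The genome search found 4 other partial copies, on chromosomes 1, 2 and 3, that aligned over 117 to 278 bases with 83.1% to 94.0% identity. Each of the 4 lay under an ATAC-seq peak in 2 or more libraries, and none under a ChIP peak. Reads from other copies could be placed at this site, and their part in the peaks was not tested.

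The remaining ChIP peak near the list was in an intron of Wasf3 itself, 82.3 kb downstream of the TSS (chr5:146467135-146467302), in ChIP Hyp only. It held 6 reads at a fold of 5.75 and a −log10 q of 3.97, rank 457 of 612, 2 reads above the lowest summit of that list. No ATAC-seq library had a peak there. The stretch is printed as the one ChIP peak inside a gene body of the list away from its promoter.
Wasf3 distal ChIP Hyp peak: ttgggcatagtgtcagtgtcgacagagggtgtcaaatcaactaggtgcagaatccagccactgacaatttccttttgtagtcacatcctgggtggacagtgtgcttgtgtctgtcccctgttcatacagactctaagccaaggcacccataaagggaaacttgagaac
It is unmasked, has no other copy in the genome by the same search, and holds none of the motifs searched.

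**Figure D4:**
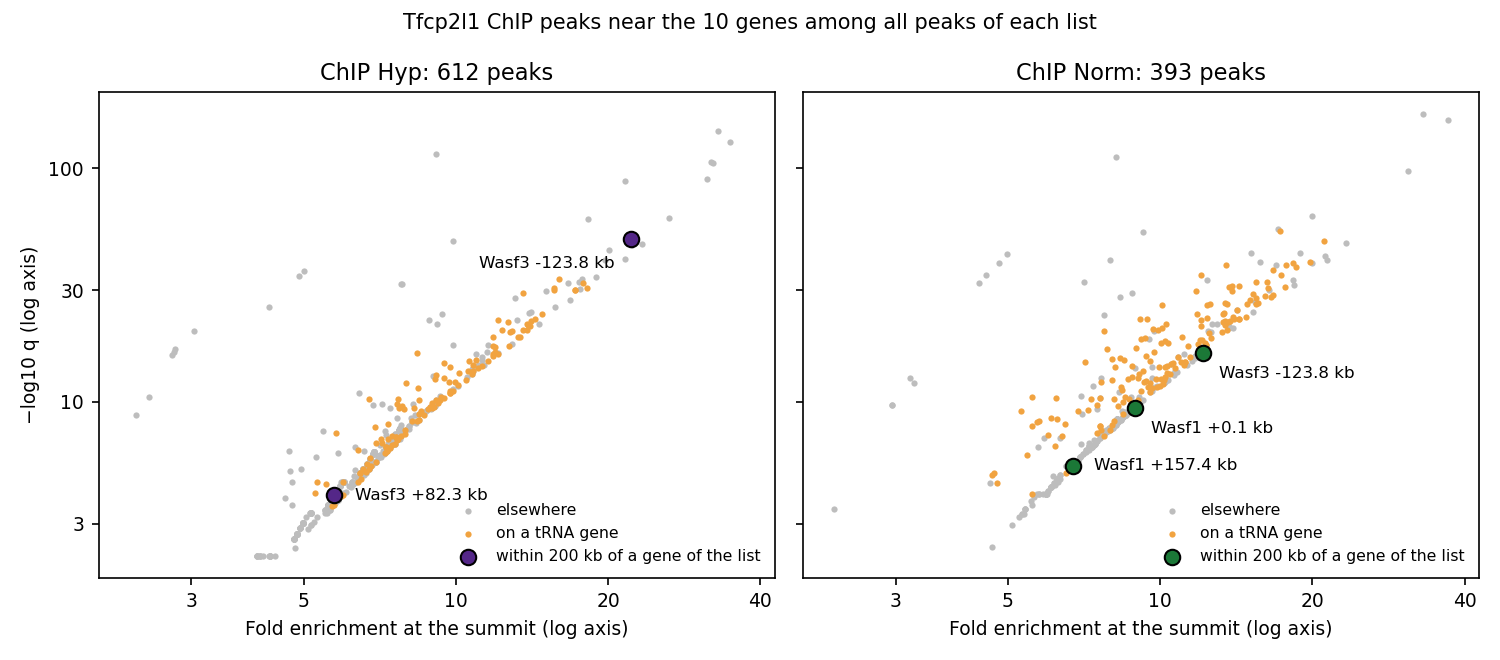
Fold enrichment at the summit (horizontal, log axis) against −log10 q (vertical, log axis) of every peak of ChIP Hyp (left) and ChIP Norm (right), with peaks on tRNA genes in orange and peaks within 200 kb of a gene of the list as large labelled circles. The Wasf3 peak at −123.8 kb lies near the top of ChIP Hyp (rank 10 of 612) the same place ranks 120 of 393 in ChIP Norm, and the other labelled peaks rank 222 and 335 of 393 in ChIP Norm and 457 of 612 in ChIP Hyp.

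The promoters of the list held common promoter motifs and none for Tfcp2l1. RefSeq gave a promoter of 300 bases for 9 of the 10 genes, all but Cyfip1, and motifs were searched on both strands beside the 32817 promoters of that length. GGGCGG, a word bound by Sp and Klf factors, was in 8 of 9 (35.6% of all promoters) and missing in this window of Wasf3. CCAAT, the NFY word, was in Actr2, Arpc5, Wasf1 and Wasf2 (37.4% of all). The ETS word CCGGAA was in Actr2, Actr3 and Arpc3 (14.9%), and the NRF1 word GCATGCGC in Actr3, Arpc2 and Arpc3 (2.71%). Wasf3 alone held the YY1 word AAGATGG (6.33%), Arpc5 alone the E-box CACGTG (7.15%), and Arpc2 and Wasf1 held the TEAD word GGAATG (14.7%). These matches depend on the window: the widest promoter peak of Wasf3 held GGGCGG and CCGGAA and not AAGATGG, and that of Actr3 held AAGATGG. The widest promoter peak of Cyfip1 held the Sp and Klf, NFY and TEAD words and an AP-1 word.

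Several motifs had no match in any of these 9 promoter windows. These were the Tfcp2l1 consensus with at most 2 mismatches (1.41% of all promoters), the SRF CArG box (1.63%), the AP-1 words TGACTCA and TGAGTCA (5.21%) and the CRE word TGACGTCA (1.79%). The hypoxia words that were searched, TACGTG and GACGTG (9.35%), and the tRNA B box word GTTCGANTC (0.168%) had none either. The shorter word ACGTG, which both hypoxia words contain, was not searched. It stands in the printed Arpc3 promoter and within the E-box of Arpc5. With 9 promoters, few matches would be found at these shares, and no match says only that the letters are not in the window. In 200 bases around the ChIP summits, the Tfcp2l1 consensus matched in 4.7% of the ChIP Hyp peaks and 7.57% of the ChIP Norm peaks. The 9 promoters had 5 (Wasf3) to 41 (Arpc5) CG pairs, and all but Wasf3 had at least 17, against a median of 7 over all promoters.

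The other genes of the pathway, 57 in 6 lists, had promoter peaks at shares between those of the 10 and of all genes in each library. Of them 31 had one in Hyp-Imm (54.4%), 42 in Hyp-Pro (73.7%), 43 in Norm-Sen (75.4%) and 43 in Norm-Pro (75.4%). In all 4 libraries 23 had one, against 23.2% of all genes, which is also the background for such counts in the separate lists below. In no library did 6 have one, and the share of all genes with none is not given here. Only in Hyp-Imm, the shallowest library, did 10 lack one, and the share of all genes with that pattern is not given here. With any transcript start as TSS, 38 had a promoter peak in Hyp-Imm, so absences there depend on the TSS chosen. A promoter peak in Hyp-Imm and not in Norm-Sen was seen in 3 of the 57, against 4.23% of all genes, and the reverse in 15, against 20.9%.

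Of the other Arp2/3 subunits, Arpc4 and Actr3b were open in all 4 libraries, and Arpc1a and Arpc5l, the paralogs of Arpc1b and Arpc5, lacked a peak only in Hyp-Imm. Of the other WAVE complex subunits, Nckap1 and Abi2 were open in all 4, and Abi1 lacked a peak only in Hyp-Imm. Brk1, the smallest subunit, had one in Hyp-Imm and Norm-Sen, the late cultures, and Cyfip2, the paralog of Cyfip1, in Norm-Pro only. Nckap1l, the form of Nckap1 in blood cells, and Abi3 had none. Abi3 had a ChIP peak within 200 kb in both lists and Nckap1l in ChIP Norm.

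Of 10 other factors that switch on Arp2/3 or help to do so, Wasl, Wipf2 and Washc1 were open in all 4 libraries. Wipf1, Whamm and Jmy lacked a peak only in Hyp-Imm, and Cttn, which stabilizes branches, had one in Hyp-Pro and Norm-Pro, the passage 1 cultures. Was and Hcls1, best known from blood cells, and Wipf3 had one in Norm-Sen only. None of these 10 had a ChIP peak within 200 kb, beside backgrounds of 11.8% in ChIP Hyp and 8.13% in ChIP Norm, so few would be found.

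Of 12 genes of Rac and its activators, 5 were open in all 4 libraries, Rac1 among them, and Rac2, the form in blood cells, in none. Vav3 lacked a peak only in Hyp-Imm, and Rac3 and Tiam2 lacked one only in Norm-Pro. Dock1 had one in Hyp-Pro and Norm-Pro, its partner Elmo1 in Norm-Sen and Norm-Pro, and Arhgef7 in Norm-Pro. Baiap2, which links Rac to the WAVE complex, had a ChIP Hyp peak within 200 kb, and Rac3 a ChIP Norm peak.

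Of 8 genes that hold back Arp2/3 or take branches apart, Gmfg and Coro1c were open in all 4 libraries. Arpin, an inhibitor of the complex, Coro1a and Coro2b were open in none. Gmfb had a promoter peak in Norm-Sen and Norm-Pro, Pick1 in Hyp-Pro and Norm-Pro, and Coro1b in all but Norm-Sen. Gmfg had a ChIP peak within 200 kb in both lists and Coro1a in ChIP Hyp.

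Of 16 genes for filament ends and turnover, 9 were open in all 4 libraries, among them the capping protein genes Capza1, Capza2 and Capzb. Actb, Cfl2 and Pfn2 lacked a peak only in Hyp-Imm, while Actg1 lacked one in Norm-Sen, Cfl1 in Norm-Pro and Pfn1 in Hyp-Pro. Vasp, which elongates filaments at the leading edge, was the 1 gene of the 57 with a promoter peak in Hyp-Imm and Hyp-Pro alone. By the file names these would be the normoxic libraries, and the share of all genes with this pattern is not given here. Within 200 kb Vasp had a ChIP peak in both lists. Actb, Actg1 and Fmnl3 had one in ChIP Hyp. In all, 8 of the 57 genes had a ChIP Hyp peak within 200 kb and 5 a ChIP Norm peak, beside backgrounds of 11.8% and 8.13%.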

How the data were processed

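The 4 ATAC-seq lists and 2 Tfcp2l1 ChIP-seq lists hold MACS2 peaks, called by the authors per library. Reads of the ATAC-seq libraries were aligned with Bowtie2 to GRCm38, pairs far apart were removed and read starts were shifted to the Tn5 cutting site. For ChIP-seq, made by ChIPmentation, Bowtie and MACS2 are named in the submitters' processing notes; the build was taken as GRCm38 because the study shows these peaks on that assembly. The fold enrichment, a ratio deposited by the authors, sets the summit pileup against the local background. The deposited −log10 p and −log10 q values are those of MACS2 at the summit, the second adjusted within a library. The score column deposited by the authors was left out. Fold and −log10 q describe a peak within its own list; only the choice of the 2 leading regions of a gene set −log10 q of different lists side by side.

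Summit reads and local background were solved from fold and −log10 p by the definitions of MACS2; all peaks gave whole reads within a tolerance of 0.001 in −log10 p. On simulated peaks 2000 of 2000 pileups were recovered. Genes are those of GENCODE vM21 and the 403 tRNA genes those of RefSeq. Peaks were merged with bedtools 2.31.1, overlap meant 1 bp, and copies of printed stretches were searched with blastn 2.17.0. Python 3.11.15 with pandas 2.3.3 and SciPy 1.17.1 was used. With 1 library per condition no test between conditions was made. The members and lists were chosen with earlier results of these data known. All 10 genes were named, with their promoter peaks, the 2 other regions with the highest −log10 q, all ChIP peaks within 200 kb, and other pathway genes that lacked a promoter peak or had a ChIP peak; no gene was named for likeness to a member. Alternatives covered the promoter window, the TSS, the peak threshold, equal numbers of peaks, the overlap, the ChIP distance, the motif definition and the conditions by the file names.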

Additional observations from a re-analysis of the deposited data

How the results depend on the processing

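Of 128 alternative values 105 stayed within 1.5 times the reported count. With a promoter window of 500 bp or 2 kb, the genes of the list with a promoter peak in each library stayed the same. So they did with any transcript start as TSS, a −log10 q of at least 2 and an equal number of peaks. The counts of the 57 other pathway genes did change. With any transcript start, 38 had a promoter peak in Hyp-Imm and 47 in Norm-Sen, against 31 and 43. With equal numbers of peaks, 38 had one in Norm-Sen. At a −log10 q of at least 5, the genes of the list with a promoter peak fell to 3 in Hyp-Imm, and 5 differed between Hyp-Imm and Norm-Sen, 5 between Hyp-Imm and Hyp-Pro, 4 between Hyp-Pro and Norm-Pro and 2 between Norm-Sen and Norm-Pro. The same threshold left 6 regions near the list in Hyp-Imm, 13 in Hyp-Pro, 15 in Norm-Sen and 12 in Norm-Pro, and 8 other pathway genes in Hyp-Imm and 26 in Norm-Sen. With conditions by the file names, 1 gene differed between Hyp-Imm and Hyp-Pro and 3 between Norm-Sen and Norm-Pro, and the regions numbered 48 in Hyp-Imm and 18 in Norm-Sen. With 50 kb on each side there were 35 regions in Hyp-Imm, 70 in Norm-Sen and 78 in Norm-Pro, with 5 kb 30 in Norm-Pro, and with equal numbers of peaks 31 in Norm-Pro. Within 500 kb 3 genes had a ChIP Hyp peak, and within 100 kb 1 had a ChIP Norm peak. With 3 mismatches 2 promoters matched the Tfcp2l1 consensus, where 11.0% of all promoters did. The thresholds and windows change the peaks counted; other causes were not tested. Hyp-Imm was the shallowest library, and the part of depth in its absences was not tested. No paired analysis was possible because each condition had 1 library.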
